A study of Mus musculus with 768 samples.

Results

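The immature neural cells of the dentate gyrus were taken here as 52 of 658 kept wells (7.90%), each well holding a cell sorted for the Nestin:GFP reporter. They were selected on their own counts. A well counted as a neuroblast with at least 2 of Dcx, Sox11, Neurod1 and Igfbpl1 at a level of 20 CPM or more (counts scaled to the total of the well), and as an oligodendrocyte precursor with at least 3 of Pdgfra, Gpr17, Tnr, Neu4, Lhfpl3 and Matn4 at that level. Wells with at least 3 of 5 myelin genes (Mag, Mog, Mobp, Cldn11, Mal) or 3 of 4 astrocyte genes (Aldoc, Slc1a2, Gja1, Aqp4) at 50 CPM or more were left out, which removed 3 wells that met the precursor rule and 0 that met the neuroblast rule. The members comprised 37 neuroblasts, 13 precursors and 2 wells that met both rules, which are described on their own.

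The cells came from 8 male Nestin:GFP mice, aged 2 months, whose reporter is driven by regulatory sequence of Nes and so marks other cells with Nes activity besides stem cells. Controls (mice 1, 3, 5 and 7) received a negative control oligonucleotide. The others (mice 2, 4, 6 and 8) received a mimic of miR-132, a microRNA abundant in neurons. In both groups 150 pmol were given with lipofectamine 2000 in 3 µl once a week over 5 weeks. The sort of the first 4 mice was on 17 April and that of mice 5, 6, 7 and 8 on 19 April, with 2 mice of each group per date. The labels do not say which cells took up the oligonucleotide. The labels give 2 maps from wells to mice. The map by the sample descriptions is used, and a map by the sample titles gives the same treatment for 22 of 52 members. Every comparison between treatments rests on that choice. A kept mouse had 72 to 90 wells, and members had 125411 to 995370 counts (median 578294.5).

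In the adult dentate gyrus, stem cells of the subgranular zone give rise to intermediate progenitors, which carry the transcription factor Eomes (Tbr2) and divide, and then to neuroblasts that carry Dcx, a microtubule-binding protein of migrating young neurons. Postmitotic immature granule neurons pass through a stage with the calcium-binding protein calretinin (Calb2) before calbindin (Calb1) appears. Oligodendrocyte precursors are a separate dividing lineage, known by the growth factor receptor Pdgfra and the proteoglycan Cspg4 (NG2). As they commit to become oligodendrocytes they lose both and pass through a stage with the receptor Gpr17.

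A microRNA recognises messenger RNAs through its seed, bases 2 to 8, which pairs with a matching stretch of the 3′ UTR. The mature miR-132-3p is shown with its seed in capitals because the treatment supplied it, and miR-212-3p because it has the same seed. Beside them stand sites in 3 published miR-132 targets that could be tested in the neuroblasts, in 30 bases of mRNA sense with the 8-base match in capitals. The microRNAs are from RefSeq (GRCm38.p6) and the sites from GENCODE M21 3′ UTRs (GRCm38, the same assembly as the submitters' mm10).
mmu-miR-132-3p (chr11:75173723-75173744, + strand): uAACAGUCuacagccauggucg
mmu-miR-212-3p (chr11:75173443-75173464, + strand): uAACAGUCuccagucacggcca
Zeb2 (chr2:44987235-44987264, - strand): acctcaagaggGACTGTTAaatacaatgta
Foxo3 (chr10:42186151-42186180, - strand): aacccagcagaGACTGTTAgcagccctggc
Ep300 (chr15:81652005-81652034, + strand): atcactgtataGACTGTTAaatttgatttc

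Both rules separated the wells with few in between. Among the 263 kept wells free of the excluded markers, 26 had all 4 neuroblast genes at 20 CPM, 9 had 3, 4 had 2, 7 had 1 and 217 had none. For the precursor rule 11 had all 6 genes, 4 had 5, none had 2 to 4, 16 had 1 and 232 had none. Just outside the neuroblast rule stood a well of mouse 3 with Sox11 at 136 CPM and another of mouse 3 with Dcx at 23.6 CPM, each with no other rule gene. Just inside it stood a well of mouse 3 with Dcx at 576 CPM and Sox11 at 416 CPM and no Neurod1 or Igfbpl1. The wells outside the members with a single precursor gene mostly had Pdgfra, up to 3835 CPM in a well of mouse 8, and none of the other 5 at 20 CPM.

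The rule genes themselves are described without a test, since they chose the wells. Sox11, a transcription factor of newborn neurons, was at 20 CPM or more in 37 of 37 neuroblasts, and Dcx in 32. Neurod1, a transcription factor that drives granule neuron differentiation, was at that level in 33 of 37. The mean level of Dcx was 483 CPM in neuroblasts, 21.2 CPM in precursors and 0.044 CPM in the other 606 kept wells. Neurod1 averaged 815 CPM in neuroblasts and had no count in any of the 13 precursors. Dcx lies at chrX:143855842-143933311, Sox11 at chr12:27334264-27342574, Neurod1 at chr2:79452521-79456751 and Igfbpl1 at chr4:45809468-45826923.

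The neuroblasts carried genes of the granule neuron lineage that the rule did not use, although all genes were read from the same cells. Prox1, the transcription factor that specifies granule neurons, was at 20 CPM or more in 35 of 37. Of 26 genes listed for young neurons, 18 were at that level in at least 50% of the neuroblasts and 2 in at least 50% of the other kept wells. The median neuroblast had 16 of the 26, and the median other well 3. Nfib and Nfix, transcription factors of the hippocampal lineage, reached 20 CPM in 37 and 36 neuroblasts. Tubb3, the neuronal beta-tubulin, averaged 1189 CPM in neuroblasts, 53.3 CPM in precursors and 31.6 CPM in the other wells.

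Genes of mature granule neurons were mostly low. Of 14 listed, 6 had no count in any neuroblast, and the summed level ranged from 0 to 2094 CPM with a median of 475 CPM. Of the 14, 2 were at 20 CPM or more in at least 50% of the neuroblasts. These were Rbfox3, which encodes the neuronal RNA-binding protein NeuN, and Snap25, a synaptic vesicle fusion gene, each in 27 of 37. Of 14 genes listed for intermediate progenitors, the median neuroblast had 4. Mfap4, an extracellular matrix protein gene, was at 20 CPM in 23 of 37 and Eomes in 14 of 37.

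The 12 genes outside the lists with the largest ratio of mean level in neuroblasts to the other kept wells were led by Hecw1, a ubiquitin ligase gene, and Olfm2. They included Nsg2, a neuronal endosome protein gene, at 20 CPM in 36 of 37 neuroblasts and 3 of 606 other wells. The host transcript of the neuronal microRNA miR-124 (Mir124a-1hg) was at that level in 28 of 37 neuroblasts and in 0 of 606 other wells. Scrt2, a transcriptional repressor of neural progenitors, was at that level in 24 neuroblasts and had no count in any precursor. The other genes of the 12 were Myt1l, Miat, Clvs1, Prr36, Sept3, Sez6 and Myt1.

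Eomes and Calb2 split most neuroblasts into different wells. Of the 37, 11 had Eomes alone at 20 CPM, 18 had Calb2 alone, 3 had both and 5 neither. This split was chosen after the values were seen and is a description of single wells. Wells with Eomes alone averaged 531 CPM of Hes6, an inhibitor of Hes1 in neurogenesis, against 98.3 CPM in wells with Calb2 alone. Dll1, the Notch ligand, was at 20 CPM in 5 of the 11 and had no count in the 18. Sox9, a transcription factor of neural stem cells and astroglia, was at that level in 9 of the 11 and 2 of the 18.

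Of 20 migration and guidance genes, 15 had a higher mean in the wells with Calb2 alone, 4 in the wells with Eomes alone and 1 had no count in either. Of 20 transmitter receptor genes the numbers were 10, 3 and 7. These counts were made after the values were seen and carry no test. Plxna4, a semaphorin receptor gene, was at 20 CPM in 12 of 18 wells with Calb2 alone and 1 of 11 with Eomes alone. Grin2b, an NMDA receptor subunit gene, was at that level in 11 of 18 and 0 of 11. By wells at 20 CPM, other guidance genes did not follow. The neuropilin gene Nrp1 was at that level in 7 of 18 and 8 of 11, and the netrin receptor gene Dcc in 5 of 18 and 5 of 11. By mean, Nrp1 was higher in the wells with Calb2 alone (341 CPM and 226 CPM) and Dcc was not (203 CPM and 220 CPM). Gria2, an AMPA receptor subunit gene, averaged 1296 CPM and 383 CPM in these wells, and Prox1 averaged 1703 CPM and 566 CPM. Cd24a, a surface glycoprotein gene of young neurons, averaged 1441 CPM and 326 CPM. Other genes of the young neuron list went the other way in the same wells. Elavl4 averaged 126 CPM and 610 CPM, Elavl2 108 CPM and 213 CPM, and Sox4 150 CPM and 298 CPM. Directions over that whole list were not counted. The part of library depth in the split was not tested. Eomes lies at chr9:118478212-118486132 and Calb2 at chr8:110137502-110168210.

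**Figure D1:**
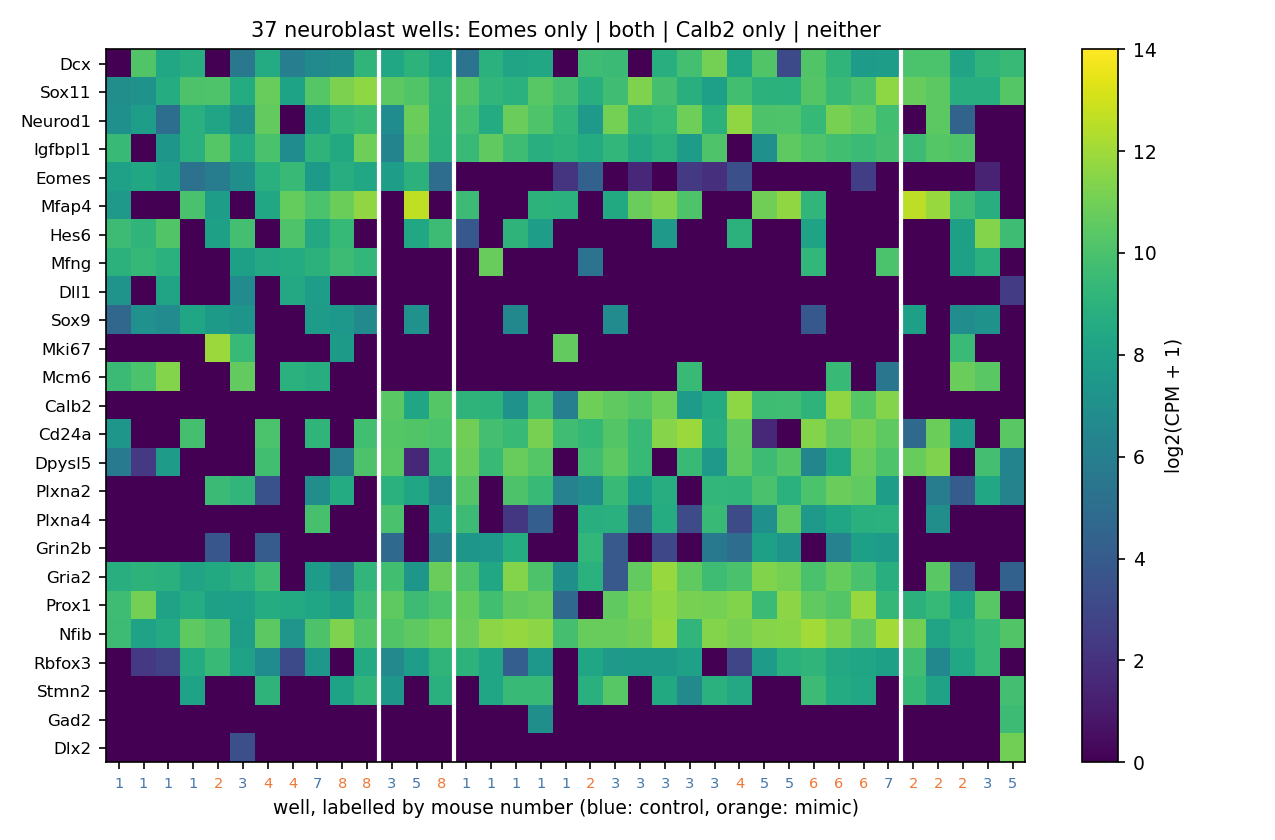
Level of 25 genes (rows, log2 of CPM + 1, from dark at 0 to yellow at 14) in each of the 37 neuroblast wells (columns, labelled by mouse number, blue for control and orange for mimic). White lines part 11 wells with Eomes alone, 3 with both, 18 with Calb2 alone and 5 with neither; the Calb2 wells are brighter in Plxna4, Grin2b and Prox1, and the last well on the right is the only one with Dlx2 above 20 CPM.

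A small number of the neuroblasts had many cell cycle transcripts and are called dividing here, with a cut set after the values were seen. Of 30 genes of S phase and of G2 and mitosis, 5 neuroblasts had at least 10 at 20 CPM or more, as did 1 of 13 precursors and 1 of 606 other wells. Among these 5, the highest had 26 of the 30 genes, with Mki67, a proliferation marker, at 740 CPM and Top2a, a topoisomerase of dividing cells, at 801 CPM, in mouse 2. A well of mouse 3 had 25 of the 30. The wells of mouse 1 among them, with 14 and 12 of the 30, had Mki67 and Top2a at 0. They had 12 and 10 S phase genes and 2 genes of G2 and mitosis each. Below the cut, a neuroblast of mouse 1 with 7 of the 30 had Mki67 at 1600 CPM and 6 genes of G2 and mitosis. Of the 5 dividing wells, 4 had Eomes at 20 CPM and none had Calb2 or Stmn2, a microtubule regulator of growing axons. The dividing precursor was in mouse 8 and had Mki67 at 1065 CPM.

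A single neuroblast, in control mouse 5, carried a GABAergic programme in place of the granule one. It had Gad1 and Gad2, which make the transmitter GABA, at 726 and 786 CPM, and the interneuron transcription factor genes Dlx1 and Dlx2 at 1566 and 2056 CPM. Its Dcx was 711 CPM and its Sox11 1267 CPM, while Neurod1, Igfbpl1, Prox1, Eomes and Calb2 were at 0. It had 10 of 12 GABAergic lineage genes at 20 CPM, and no other member had more than 1.

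The precursors carried the wider programme of their lineage. Olig1, a transcription factor of the oligodendrocyte lineage, was at 20 CPM in 13 of 13, and Ptprz1, a receptor phosphatase gene, likewise. Of 18 further precursor genes that the rule did not use, 15 were at 20 CPM in at least 50% of the precursors, against 1 in the neuroblasts and 1 in the other kept wells. The median precursor had 13 of the 18. The 2 wells that met both rules had 14 and 15 of these 18. Their Dcx (42.2 and 202 CPM) and Sox11 (192 and 238 CPM) met the neuroblast rule with Neurod1 and Igfbpl1 at 0, and they came from mouse 5 (control) and mouse 6 (mimic). Their young neuron genes numbered 6 and 8 of 26, within the range of 3 to 9 in the precursors.

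The 13 precursors fell into 2 sets by Pdgfra, a split made after the values were seen. In 10 wells Pdgfra ranged from 1304 to 4644 CPM and Cspg4 from 121 to 4005 CPM. In the other 3, in mice 3, 4 and 6, Pdgfra and Cspg4 were both at 0, and these wells entered through the other 5 rule genes. Gpr17 was 9050, 10476 and 10775 CPM in the 3 wells and at most 5278 CPM in the 10, with no overlap.

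The 3 wells without Pdgfra had genes of commitment to the oligodendrocyte fate. Enpp6, a phosphodiesterase gene of newly forming oligodendrocytes, was 1959 to 2285 CPM in the 3 and had no count in the 10. Bmp4, a signalling ligand, was 842 to 3045 CPM in the 3 and at 20 CPM in 3 of the 10, where it was at most 611 CPM. Myrf, the transcription factor of myelin genes, was 230 to 380 CPM in the 3 and had no count in the 10. The Src-family kinase gene Fyn was 2382 to 3872 CPM in the 3 and at most 139 CPM in the 10. Cnp, a phosphodiesterase gene of the oligodendrocyte lineage, was 2977 to 6003 CPM in the 3 and at most 2170 CPM in the 10, while the late myelin genes Mobp, Mal and Opalin were at or near 0 (at most 1.21 CPM). Of the other myelin genes used for exclusion, Cldn11 was at 20 CPM in 2 of the 3 (up to 838 CPM) and Mag and Mog in 1 each (129 and 70.4 CPM).

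Of 16 radial glia and astroglia genes, 11 had a higher mean in the 10 wells with Pdgfra, none in the 3 without, and 5 had no count in either. This count, too, was made after the values were seen. Apoe, the lipid carrier, was 492 to 15146 CPM in the 10 wells with Pdgfra and 0, 2.87 and 709 CPM in the 3 without. Hes5, a Notch target, was at 20 CPM in 8 of the 10 and in 0 of the 3, and Cspg5, a neural proteoglycan gene of the precursor list, in 10 and 0. The 3 wells came from control mouse 3 and mimic mice 4 and 6, a number too small for a comparison between treatments. Pdgfra lies at chr5:75152292-75198215, Bmp4 at chr14:46383520-46390669 and Enpp6 at chr8:46986887-47096762.

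**Figure D2:**
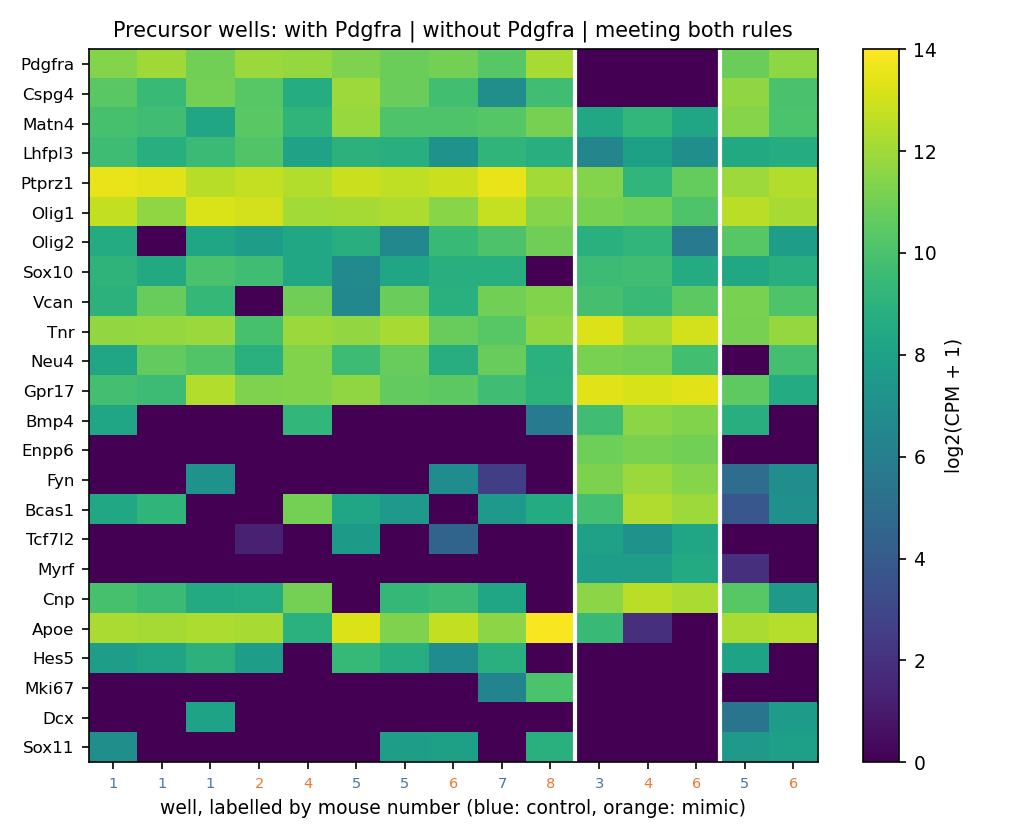
Level of 24 genes (rows, log2 of CPM + 1, from dark at 0 to yellow at 14) in 13 precursors and the 2 wells that met both rules (columns, labelled by mouse number, blue for control and orange for mimic). White lines part 10 precursors with Pdgfra, 3 without and the 2 last wells; Enpp6 and Myrf are lit in the 3 without Pdgfra, and the 2 last wells resemble the first 10 in Pdgfra, Cspg4 and Olig1.

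Among the genes outside the lists with the largest ratio of precursors to the other kept wells were Nxph1, a neurexin ligand gene, and Brinp1. Nxph1 was at 20 CPM in 8 of 13 precursors and had no count in 37 neuroblasts, which allows a share of up to 8.11%, nor in 606 other wells. Brinp1 was at that level in 10 precursors, in 0 neuroblasts and in 3 other wells. Olfm2 stood among the leading genes of both kinds, at 20 CPM in 8 precursors, 19 neuroblasts and 0 other wells. The remaining genes of the 12 were Tmem179, Dpp6, Chst5, 3110035E14Rik, Dscam, Stk32a, Chga, Sntg1 and Khdrbs2.

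Both kinds carried glutamate receptor genes, with different subunits. Gria2 was at 20 CPM in 31 of 37 neuroblasts and 12 of 13 precursors, and in 85 of 606 other wells. Grin3a, an NMDA receptor subunit gene, was at that level in 1 neuroblast and 8 precursors, and Gria4 in 3 and 8. Grin2b was at that level in 13 neuroblasts and 0 precursors. Nav1, a neuron navigator gene of axon guidance, was at 20 CPM in 34 neuroblasts and 9 precursors.

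Markers of vascular cells, fibroblasts and microglia were low in nearly all members, and those of astroglia were not. The summed level of 6 endothelial genes was at most 23.9 CPM in a neuroblast and 1.19 CPM in a precursor, and the 6 pericyte genes at most 5.17 and 1.64 CPM. In the other kept wells these sums reached 44076 and 97813 CPM. The 4 fibroblast genes had no count in either kind. The 6 microglia genes summed to at most 11.4 CPM in neuroblasts and to 535 CPM in 1 precursor. The 16 radial glia and astroglia genes had a median sum of 620 CPM in neuroblasts, 6423 CPM in precursors and 5245 CPM in the other wells. Of the 4 astrocyte genes used for exclusion, the glutamate transporter gene Slc1a2 was at 20 CPM in 33 of 37 neuroblasts, 7 of 13 precursors and 144 of 606 other wells, and Aqp4, the astrocyte water channel gene, in none of the neuroblasts or precursors. The 15 myelin genes had a median sum of 10.8 CPM in neuroblasts, 1939 CPM in precursors and 50357 CPM in the other wells. The free RNA that such sums may hold was not tested.

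The first comparison between treatments asks whether the mimic went with a different share of immature cells. Neuroblasts made up 10.3%, 11.1%, 4.82% and 2.50% of the kept wells in control mice 1, 3, 5 and 7. They made up 5.56%, 4.11%, 3.57% and 3.37% in mimic mice 2, 4, 6 and 8. The controls of the first date were the highest and a control of the second date the lowest, so the groups overlapped. The 95% exact (Clopper-Pearson) interval was 4.92 to 20.7% for mouse 3 and 0.304 to 8.74% for mouse 7, which covers counting error only.

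The mean share of neuroblasts was 7.19% ± 4.20 (SD, n = 4) in controls and 4.15% ± 0.986 (n = 4) in mimic mice, a difference of -3.04 percentage points that the spread between mice covered (exact permutation test, two-sided, p = 0.314, adjusted over 3 shares 0.471). Within dates the difference was -5.90 points on 17 April and -0.189 points on 19 April (exact permutation within dates, p = 0.167). The smallest p these designs allow is 0.0286 over all splits and 0.0556 within dates, and the 2 dates' differences were not told apart (exact permutation p = 0.222). Between dates, neuroblasts averaged 7.78% ± 3.47 and 3.57% ± 0.957 (n = 4 mice each, exact permutation p = 0.0571, adjusted over 3 shares 0.171). With wells mapped by title, the difference between treatments was 0.983 points, with the opposite sign.

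Precursors made up 3.45%, 1.39%, 2.41% and 1.25% of the kept wells in the controls and 1.11%, 2.74%, 2.38% and 1.12% in the mimic mice. These are 1 to 3 wells a mouse, and the groups overlapped. The means were 2.12% ± 1.02 and 1.84% ± 0.846 (SD, n = 4 each; exact permutation p = 0.657, adjusted 0.657). The mean difference was -0.285 percentage points. It was 0.156 points without control mouse 1, 0.616 points when wells with excluded markers were kept, and 0.374 points with wells mapped by title.

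All members together made up 9.62% ± 4.53 of the kept wells in controls and 6.29% ± 1.21 in mimic mice (SD, n = 4 each). The difference of -3.33 points did not pass the test (exact permutation p = 0.229, adjusted 0.471). Without control mouse 7, which had 3 members, it was -5.29 points with an unadjusted p of 0.0286, the smallest that this smaller design can give (exact permutation). With wells mapped by title it was 0.745 points.

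**Figure D3:**
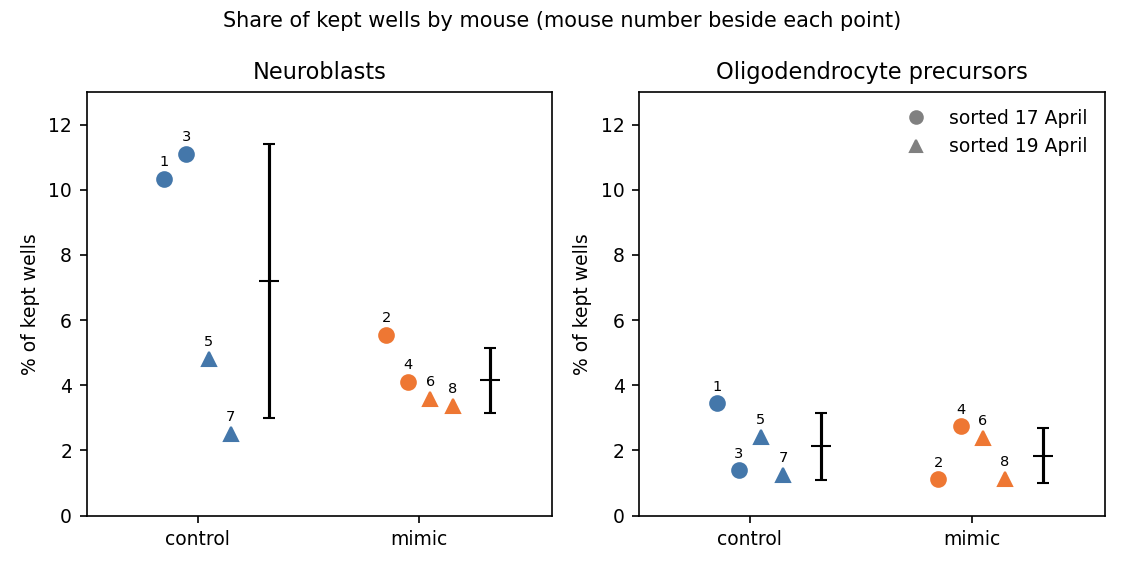
Share of kept wells (y axis, %) that were neuroblasts (left) or oligodendrocyte precursors (right), with 1 point per mouse, numbered, circles for 17 April and triangles for 19 April; bars give the mean and SD of 4 mice. Control mice 1 and 3, both of the first date, stand above all others for neuroblasts, and the precursor shares overlap between groups.

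Among the neuroblasts, the mix of states was compared in measures chosen after the values were seen. Wells with Eomes numbered 8 of 23 in controls and 6 of 14 with the mimic, and wells with Calb2 15 of 23 and 6 of 14. Stmn2 was at 20 CPM in 10 of 23 control and 11 of 14 mimic neuroblasts, a mean per mouse of 33.0% ± 26.8 and 81.7% ± 21.3 (SD, n = 4 each). That difference did not pass the test after adjustment (exact permutation p = 0.0571, adjusted over 7 measures 0.400). For the other 6 measures (Eomes, Mfap4, Calb2, Rbfox3, Prox1 and dividing wells) the exact permutation p ranged from 0.457 to 1.00. Control mouse 7 held 2 neuroblasts, so that 1 well sets much of its share.

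The second comparison asks which genes differed within these cells between treatments. Counts were summed per mouse and tested with edgeR's quasi-likelihood test, with the sort date in the model. In the neuroblasts 0 of 6590 genes passed an adjusted p of 0.05 (0.0% called), and 68 had an unadjusted p under 0.05. In all members 0 of 8079 genes passed (0.0% called), with 81 under 0.05 unadjusted. limma on log2 mean CPM also called 0 in both. DESeq2 called 39 genes in the neuroblasts (9 higher and 30 lower with the mimic) and 26 in all members (6 and 20). In 25 of the 39 and 15 of the 26, at most 1 mouse of a group had a count. Genes with an unadjusted p under 0.05 made up 1.03% with edgeR, 4.37% with limma and 10.8% with DESeq2 in the neuroblasts. In all members they made up 1.00%, 4.28% and 8.60%. The edgeR shares lay below the share of 0.05 expected with no difference. Its 0 calls therefore do not show that the groups were alike. The cause of these unlike shares was not tested.

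The level of the rule genes per mouse overlapped between treatments. Dcx was 373, 739, 590 and 169 CPM in the neuroblasts of control mice 1, 3, 5 and 7 and 595, 251, 616 and 350 CPM in mimic mice 2, 4, 6 and 8. Sox11 was 761, 892, 854 and 2310 CPM in the controls and 978, 925, 977 and 2198 CPM in the mimic mice. In each group a single mouse of the second date stood well above the others.

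Neurod1 was 671, 752, 1033 and 586 CPM in the controls and 374, 1621, 1553 and 625 CPM in the mimic mice, which held both the lowest and the highest value. Igfbpl1, an insulin-like growth factor binding protein-like gene of newborn neurons, was 581, 411, 808 and 756 CPM against 998, 363, 891 and 1010 CPM, with the mimic mice again at both ends.

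Genes that the rule did not use were tested. Eomes was 78.5, 42.4, 131 and 89.6 CPM in the controls and 15.2, 398, 1.97 and 277 CPM in the mimic mice. The mimic mice lay on both sides of the controls, and the log2 fold of mimic over control was 0.92 ± 1.503 (SE; edgeR adjusted p = 1 for this and the next 3 genes). Calb2 was 239, 864, 489 and 1464 CPM against 339, 1065, 1709 and 348 CPM (log2 fold 0.22 ± 0.63), again with overlap. Prox1 and Mfap4 had log2 folds of -0.17 ± 0.67 and 0.08 ± 0.85.

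**Figure D4:**
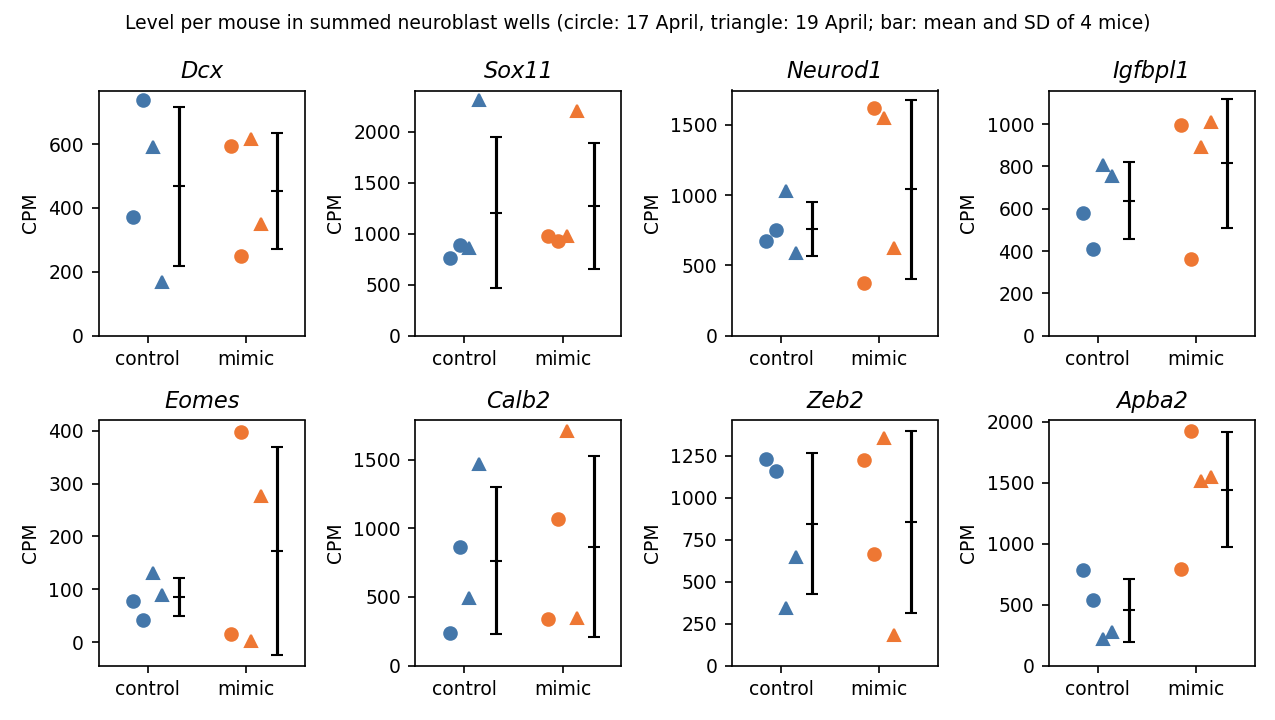
Level in CPM (y axis) of 8 genes in the summed neuroblast wells of each mouse, control in blue and mimic in orange, circles for 17 April and triangles for 19 April; bars give the mean and SD of 4 mice. The groups overlap for all genes but Apba2, whose lowest mimic mouse at 790 CPM lies just above the highest control at 782 CPM.

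The lists were read against all tested genes, whose median log2 fold was -0.13 in the neuroblasts. Of 23 young neuron genes tested, 8 were higher and 15 lower with the mimic (median -0.17), and 1 had groups that did not overlap, where 2.56% of all tested genes had none. Of 9 intermediate progenitor genes, 6 were higher and 3 lower (median 0.81). Without the sort date in the model that median was -0.03. Of 14 migration and guidance genes, 7 were higher and 7 lower (median -0.17), and of 9 tubulins 5 and 4 (median 0.16). Of the 14, 1 had groups that did not overlap (Lrp8, higher with the mimic, named after its values were seen). None of these genes passed the test.

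Immediate early genes, transcription factors and regulators induced within minutes of a stimulus, had fitted folds below 0, with none called. In the neuroblasts 0 of 8 tested were higher and 8 lower (median log2 fold -0.77), and in all members 0 of 11 and 11 (median -1.56, against -0.13 over all tested genes). Of the 8, 1 had groups that did not overlap (Klf6, a zinc finger factor gene, named after its values were seen), where 2.56% of all tested genes had none. Klf6 was low, at 27.1, 58.9, 159 and 137 CPM in the controls and 6.92, 0, 0 and 0 CPM in the mimic mice. Its log2 fold was -6.83 ± 3.27. The gene filter asked for counts in 10% of all neuroblast wells, so a gene near 0 in the mimic mice can pass on the controls alone. Such a gene can only come out lower with the mimic. The part of that filter in the Klf6 result and in the count of lower genes was not tested. limma gave 1 higher and 7 lower in the neuroblasts, and 2 and 9 in all members. With wells mapped by title the medians were -0.93 and -0.87. Under that map 2 of 10 tested were higher and 8 lower in the neuroblasts, and 0 and 11 in all members. All members mix the kinds, and the 21 listed genes had a median sum of 2609 CPM in precursors and 1145 CPM in neuroblasts. The part of that mix in the members' folds was not tested. Fos was 1782, 306, 300 and 1019 CPM in the controls and 169, 351, 41.3 and 773 CPM in the mimic mice. Its highest values were in control mice 1 and 7, and the groups overlapped (log2 fold -1.41 ± 0.89, edgeR adjusted p = 1). Without control mouse 1 it was -0.53 and without mimic mouse 8 -2.80. Egr1 was 2376, 1077, 281 and 2265 CPM against 682, 1569, 279 and 3504 CPM, with a log2 fold of -0.05 ± 0.78 and a mimic mean (1509 CPM) slightly above that of the controls (1500 CPM).

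Published targets of miR-132 showed no common direction. Of 19 listed, 12 were tested in the neuroblasts, with 7 higher and 5 lower with the mimic and none called (median 0.15). Without the sort date the split was 5 and 7 (median -0.04). Zeb2, a zinc finger repressor gene whose site is shown above, was 1230, 1160, 346 and 650 CPM in the controls and 1228, 667, 1357 and 181 CPM in the mimic mice. Its groups spanned the same range (log2 fold 0.15 ± 0.62, edgeR adjusted p = 1).

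The other genes with a site shown were low and variable. The log2 fold of Foxo3, a forkhead factor gene, was 1.17 ± 1.84. Its mimic mice ranged from 0.656 to 241 CPM and its controls from 2.74 to 149 CPM. Leaving out 1 mouse moved it between 0.32 (without mimic mouse 8) and 2.48 (without control mouse 5). Ep300, a histone acetyltransferase gene, had a log2 fold of 4.09 ± 4.21 and was at 0 in 2 controls. It was 0.66 without the sort date and between 1.54 (without mimic mouse 8) and 7.19 (without mimic mouse 4) with 1 mouse left out. Mapt, which encodes tau and has a 7-base match, had a log2 fold of 0.51 ± 1.01. The edgeR adjusted p was 1 for each of these 3 genes.

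The search covered the longest 3′ UTR of 21020 genes, of which 495 held the 8-base match GACTGTTA and 2252 the 7-base match GACTGTT that contains the seed complement. In the neuroblasts 201 tested genes held the 8-base match, 89 higher and 112 lower with the mimic, with a median log2 fold of -0.14 against -0.13 for all tested genes with a UTR. In all members 247 held it, 106 higher and 141 lower, with a median of -0.20 against -0.13. Of all 7714 members' tested genes with a UTR, 3470 were higher. The order of the members' medians was reversed with limma (-0.197 against -0.209). It was also reversed without mimic mouse 2 (-0.078 against -0.153) and without mimic mouse 8 (-0.066 against -0.082). The other settings examined kept it. A match is a description of the sequence and not a site shown to be used.

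The 10 genes of smallest p in the neuroblast test were mostly genes with counts in controls and none with the mimic. Mrpl9, a mitochondrial ribosomal protein gene, was 174, 70.7, 187 and 242 CPM in the controls, in 11 of 23 wells, and at 0 in all 14 mimic wells (edgeR p = 0.0019, adjusted p = 1). Ttc17, Magee1, Stk19, Hip1r, Cxxc1, Ptx3, Stoml1 and Ccdc84 had the same form, with counts in 6 to 8 of 23 control wells and none in 14 mimic wells. The mimic group held fewer wells. The filter asked for counts in 10% of all neuroblast wells, so a gene at 0 in the mimic mice passed on the controls alone. The part of well number and filter in the zeros, and in the numbers of genes wholly above or below the controls, was not tested.

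Apba2, an adaptor protein gene of the synapse that binds the amyloid precursor protein, was the exception. It was 782, 535, 222 and 279 CPM in the controls and 790, 1923, 1514 and 1542 CPM in the mimic mice, with counts in 19 of 23 and 13 of 14 wells. Every mimic mouse lay above every control. It was 1 of 65 genes of 6590 with that order, and 104 had the reverse order (2.56% without overlap in all). Its log2 fold was 1.77 ± 0.50 (edgeR p = 0.0051, adjusted p = 1). With wells mapped by title the log2 fold was -0.13.

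In all members the 10 genes of smallest p were Smap2, Gramd1c, Fsd1, Ccdc84, Gm26728, Pomt1, Ica1, Gabpb2, Pcdh11x and Gabra4. Fsd1 had a count in 11 of 31 control and 1 of 21 mimic wells, and Gabra4, a GABA receptor subunit gene, in 7 and 1. Gramd1c alone was higher with the mimic, with a count in 1 of 31 and 5 of 21 wells. Over all members 73 genes lay wholly above and 128 wholly below the controls (2.49% without overlap). None of the 10 passed the test (edgeR adjusted p = 1).

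Precursor genes were too few in wells for a test and are given per mouse. Tnr, an extracellular matrix glycoprotein gene, was 3587, 9980, 4108 and 1338 CPM in the precursors of control mice 1, 3, 5 and 7 and 989, 4293, 4937 and 3298 CPM in mimic mice 2, 4, 6 and 8. Mouse 3, whose only precursor lacked Pdgfra, was the highest. Pdgfra was 2940, 0, 2104 and 1304 CPM against 3789, 1675, 1142 and 4644 CPM, and the mice with a well that lacked the gene (3, 4 and 6) included the lowest 2.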

How the data were processed

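Smart-seq2 counts of 768 wells and 32679 genes were used as deposited. Per the submitters' processing notes, the authors used STAR, featureCounts 1.5.1 (Subread), FastQC and Seurat 2.3.1 with build mm10; their settings are not given in the sources used here. Reads carry no strand mark and no molecular identifier. Wells were kept with at least 50000 counts, 1000 to 6000 genes and at most 15% mitochondrial counts. CPM scales counts to the total of the well, or of the mouse after summing. The mouse is the replicate (4 against 4). Mice needed 3 member or 2 neuroblast wells. Genes that passed filterByExpr and had counts in 10% or more of the wells concerned were tested with edgeR 4.0.16 (TMM, quasi-likelihood, sort date as covariate, two-sided, Benjamini-Hochberg, threshold 0.05; R 4.3.3); DESeq2 1.42.0 and limma 3.58.1 (log2 of mean CPM + 1) were alternatives. The edgeR fit was tested on simulated counts, without a simulated date effect and without the low-count filter. Shares used exact permutation over 70 splits. Summed counts per mouse were 1338692 to 4767253 in neuroblasts and 2334062 to 6257445 in members. Members and lists were chosen with earlier results of these data known. Named genes were the rule genes, list genes with a count in the highest share of wells, the 12 leading genes of each kind, the 10 of smallest p and tested targets; the Eomes, Calb2, Stmn2 and Pdgfra splits and the genes given with them, and other list genes named as examples, were chosen after the values were seen. The wells meeting both rules were set apart after seeing the data. The maps agree on the mouse of 96 and the treatment of 384 wells. Some items are not reported here.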

Additional observations from a re-analysis of the deposited data

Results flagged for a closer look

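Sox11 in the neuroblasts had 1 mouse far from the other 3 in each group. Control mouse 7 had 2310 CPM and mimic mouse 8 had 2198 CPM, both sorted on 19 April. These were 2 of 36 groups of 4 mice examined for a distant value, and chance marks about 1 group in 20.

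Of 16 wells with more than 6000 genes, which were left out of the kept wells, 10 had at least 2 neuroblast markers at 20 CPM and 9 had at least 3 precursor markers. Of 18 wells with fewer than 5000 counts, 0 had any count of a neuroblast rule gene and 3 had a count of a precursor rule gene. The labels give 94 cells sorted per mouse, and the data hold 96 wells per mouse. Whether the 16 wells held single cells is not stated.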

How the results depend on the processing

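The treatment comparisons rest on few wells and 4 mice a group, and differences smaller than the spread between mice were not detectable. For the shares and the counts of called genes, 75 alternative values kept direction and side of the threshold, 5 changed sign, 3 counts moved and 1 share came to the smallest p possible. Some of the 75 repeated the main values. Marker levels of 10 and 50 CPM left the neuroblast difference at -3.04 points and the members' at -3.33. Dropping the exclusion left the neuroblasts unchanged, and permutation within dates used the main differences. DESeq2 called 26 genes in members and 39 in neuroblasts against 0 with edgeR, and edgeR without a low-count filter called 5 in members; the cause was not tested. With wells mapped by title the differences in share were 0.745 (members), 0.983 (neuroblasts) and 0.374 (precursors) percentage points. The precursor difference was 0.616 points without the exclusion. Leaving out 1 mouse at a time gave -5.29 to -1.94 points for members, -4.61 to -1.74 for neuroblasts and -0.586 to 0.156 for precursors, and edgeR then called 0 genes in every case; the members' -5.29 was without control mouse 7.

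None of the named log2 folds passed the test, and 33 alternative values changed sign while 165 did not. Leaving out 1 mouse gave -0.46 to 0.66 for Calb2, -1.25 to 0.37 for Egr1, -0.55 to 1.40 for Eomes, 1.54 to 7.19 for Ep300, -2.80 to -0.53 for Fos, 0.32 to 2.48 for Foxo3, -0.85 to 0.90 for Mapt, -0.52 to 1.13 for Mfap4, -0.87 to 0.31 for Prox1 and -0.89 to 0.46 for Zeb2. Mapping by title gave -0.13 for Apba2, -1.25 for Ep300, -4.47 for Foxo3, -1.15 for Mfap4, 0.33 for Prox1 and -0.068 for Zeb2. limma gave -0.90 for Eomes, -0.72 for Mapt and -0.10 for Zeb2. Without dividing wells, an alternative added after seeing the data, Egr1 was 0.062. Without the sort date Mfap4 was -0.035 and Zeb2 -0.081, and without the GABAergic well, also added later, Mfap4 was -0.057. The cause was not tested. No paired analysis was possible because the groups share no mouse numbers.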

Other observations

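Genes of antigen presentation were rarely seen in the neuroblasts. Of 9 such genes, B2m, the light chain gene of the class I complex, was at 20 CPM in 11 of 37 neuroblasts, 8 of 13 precursors and 432 of 606 other kept wells. H2-K1, a class I heavy chain gene, was at that level in 1 neuroblast, 4 precursors and 214 other wells. These are shares of wells with no test, since the cells were chosen on the same counts.

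The tubulins differed between the kinds. Tubb5 averaged 4580 CPM in neuroblasts, 933 CPM in precursors and 375 CPM in the other wells, and Tubb4a, the tubulin of myelinating oligodendrocytes, 729, 1481 and 9827 CPM. The immediate early gene Arc was at 20 CPM in 0 neuroblasts, 0 precursors and 180 other wells, while Egr1 was at that level in 20, 8 and 176.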
